A study of Mus musculus with 6 samples.

Results

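The guanylate-binding proteins (GBPs) of the mouse were examined as 10 genes, named by symbol as Gbp2, Gbp2b, Gbp3, Gbp4, Gbp5, Gbp6, Gbp7, Gbp8, Gbp9 and Gbp10, out of 24493 genes in the expression table. All 10 were found by symbol and all were above 0 in each of the 6 libraries. The libraries are messenger RNA sequencing of mouse CD4 T cells, taken naive from the spleen and driven in culture towards regulatory T (Treg) cells. There were 3 Ifnar1-SA libraries and 3 wild-type (WT) libraries. The product of Ifnar1 is 1 of the 2 receptor chains for type I interferon, and SA names a knock-in allele in which, by published work on these mice, an alanine stands in place of the serine that marks the chain for degradation. The labels give no age, strain or source animal for a library and do not say whether the cultures were separate, so the p-values below reflect only how these samples spread, which may be technical.

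GBPs are large GTPases that interferons induce and that assemble on vacuoles and on bacteria inside a cell. Interferon-gamma is their strongest known inducer and acts in part through IRF1, and type I interferon induces them as well. They are best known from macrophages and other infected cells, where they open pathogen vacuoles and feed inflammasomes, and they are also transcribed in T cells. The Ifnar1-SA allele was compared with WT to ask which transcripts differ in these cells.

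The 10 genes lie in 2 clusters of the GRCm38 assembly. On chromosome 3, between 142493978 and 142638008 on the plus strand, are Gbp5, Gbp7, Gbp3, Gbp2b and Gbp2, in that order. On chromosome 5, between 105014150 and 105293698 on the minus strand, are Gbp8, Gbp9, Gbp4, Gbp10 and Gbp6. All 10 are annotated as protein-coding in GENCODE M21, and the annotated loci of Gbp8, Gbp9 and Gbp4 overlap one another.

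Upstream sequence from RefSeq (build GRCm38.p6) matched 5 of the 10 genes, Gbp2, Gbp2b, Gbp3, Gbp5 and Gbp7, the members on chromosome 3. It is shown because interferon acts on these genes through short elements near the start site. The interferon-stimulated response element, which IRF family factors bind, was searched as GAAA, any 2 bases and GAAA again. The search covered both strands of the 250 bases before the RefSeq start. All 5 genes held it, against 2.98% of 32851 such windows across the mouse genome. Gbp3 has 2 annotated starts, of which only the first had a match, there as a pair of overlapping copies. The lines below give 30 bases around the match, 5′ to 3′ on the plus strand, with the match in capitals. They lie at chr3:142620594-142620623 for Gbp2, chr3:142594700-142594729 for Gbp2b, chr3:142559989-142560018 for Gbp3, chr3:142496759-142496788 for Gbp5 and chr3:142530273-142530302 for Gbp7.
Gbp2: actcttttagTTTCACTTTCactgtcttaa
Gbp2b: gtacttctaaTTTCACTTTCttctttatca
Gbp3: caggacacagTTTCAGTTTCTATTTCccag
Gbp5: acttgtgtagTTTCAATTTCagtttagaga
Gbp7: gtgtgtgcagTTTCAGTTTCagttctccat

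The match began 59 bases before the start in Gbp2, 53 in Gbp7 and 45 in Gbp3, but 137 in Gbp2b and 165 in Gbp5. The gamma-activated sequence, an element of genes that interferon-gamma induces, was searched as TTCNNNGAA, which reads the same on both strands. It occurred in Gbp5 and Gbp7, with 2 copies each, and in 7.02% of all windows. The whole 250 bases of Gbp2, the most abundant member, and of Gbp7, whose libraries separated by genotype, follow with the letters of either motif in capitals. The windows are chr3:142620413-142620662 and chr3:142530086-142530335, both on the plus strand. A match describes these letters and does not show that a factor binds there.
Gbp2: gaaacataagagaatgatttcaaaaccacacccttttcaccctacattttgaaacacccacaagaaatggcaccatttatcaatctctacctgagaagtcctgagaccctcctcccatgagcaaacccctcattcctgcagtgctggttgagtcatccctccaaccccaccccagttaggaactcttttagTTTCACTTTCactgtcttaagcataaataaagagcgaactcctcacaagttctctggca
Gbp7: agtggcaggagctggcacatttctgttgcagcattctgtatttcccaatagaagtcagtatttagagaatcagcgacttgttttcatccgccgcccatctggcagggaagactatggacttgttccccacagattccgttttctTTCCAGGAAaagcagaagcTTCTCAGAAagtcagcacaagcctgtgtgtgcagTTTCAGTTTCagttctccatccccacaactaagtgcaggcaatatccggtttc

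Expression was read in TPM, which divides out transcript length, totals 1000000 in every library and carries no information on depth. Differences were taken on log2(TPM + 1), which understates the change of low genes, and tested with limma for the 12141 genes that averaged 1 TPM or more. Of these, 7 genes (0.0577%) passed a Benjamini-Hochberg adjusted p of 0.05, 2 of them (0.0165% of all) as higher in Ifnar1-SA, and 0 were GBPs. Between 21925 and 22958 genes were above 0 in a library, and no pair of libraries held identical values. The gene Mir6236 took 6.52% to 11.9% of a library, and median-of-ratios scaling factors were 1.15 for Ifnar1-SA 1 and 1.13 for WT 2 against 0.890 to 1.003 for the other 4. Foxp3, the defining gene of Treg cells, was at 0.746, 1.82 and 0.759 TPM in Ifnar1-SA and at 0.697, 0.295 and 0.276 TPM in WT. It was low in all 6 libraries, averaged under 1 TPM and was not tested. Of 8 Treg markers, 2 did not overlap between the genotypes, Foxp3 and Ctla4, against 5.77% of all genes tested. Ctla4 was at 778, 876 and 762 TPM in Ifnar1-SA and at 698, 544 and 482 TPM in WT. Il2ra, a chain of the interleukin-2 receptor, overlapped, at 359 to 444 TPM over the 6 libraries.

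The family spanned a wide range of levels per length within these cells. Averaged over the 6 libraries, Gbp2 led with 25.8 TPM, followed by Gbp4 with 16.2, Gbp8 with 15.95 and Gbp6 with 14.7 TPM. Gbp9 followed with 5.93 and Gbp10 with 4.19 TPM, then Gbp7 with 2.83, Gbp3 with 2.75 and Gbp5 with 2.003 TPM, and Gbp2b was last with 0.233 TPM. Gbp2 exceeded Gbp4 in 6 of 6 libraries, Gbp6 exceeded Gbp9 in 6 of 6, Gbp9 exceeded Gbp10 in 6 of 6 and Gbp5 exceeded Gbp2b in 6 of 6. Gbp4, Gbp8 and Gbp6 could not be ordered beyond their spread, with Gbp4 above Gbp8 in 4 libraries and Gbp8 above Gbp6 in 3. Gbp10, Gbp7 and Gbp3 likewise overlapped, with each above the next in 4 of 6 libraries, and Gbp3 was above Gbp5 in 5.

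**Figure D1:**
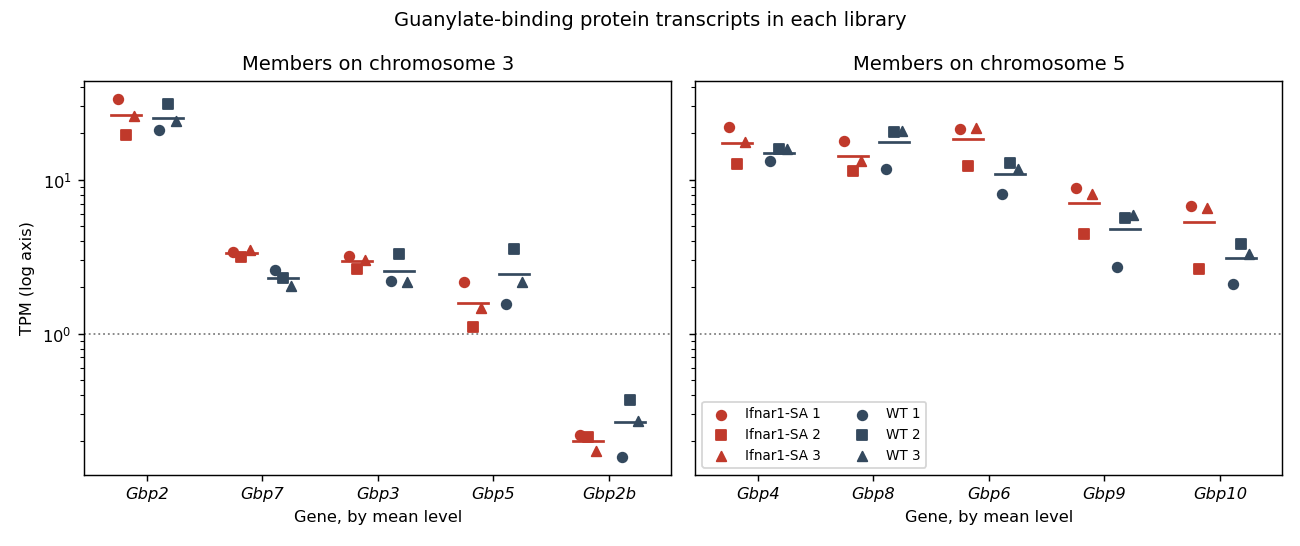
TPM (log axis) of each member in every library, with Ifnar1-SA in red left of WT in blue, bars for the genotype means and a dotted line at 1 TPM, the minimum mean for testing. Gbp2, Gbp4, Gbp8 and Gbp6 are the most abundant members, and Gbp7 is the member whose genotypes do not overlap.

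Among the members on chromosome 3, no gene passed the test between the genotypes. Gbp2, which carries a lipid anchor at its C-terminus and is recruited to Toxoplasma vacuoles in mouse cells, was at 33.5, 19.4 and 25.9 TPM in Ifnar1-SA and at 20.98, 31.01 and 24.2 TPM in WT. The genotypes overlapped fully, with both the highest and the lowest library in Ifnar1-SA. On the log2 scale Ifnar1-SA minus WT was 0.03 (standard error 0.24), with a 95% interval of -0.54 to 0.60 (limma, adjusted p = 0.9997). This adjusted p was the same for all 9 members tested.

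Gbp7, which helps assemble the phagocyte NADPH oxidase in mouse macrophages, was at 3.40, 3.16 and 3.49 TPM in Ifnar1-SA and at 2.58, 2.30 and 2.03 TPM in WT. Every Ifnar1-SA library lay above every WT library, and the SDs were small, 0.172 and 0.274 TPM (n = 3 each). The log2 difference was 0.40 (standard error 0.15), with an unadjusted limma p of 0.0308 that did not hold over all genes (adjusted p = 0.9997). Gbp7 was the 1 member of 9 without overlap in TPM, against 5.77% of all genes tested in either direction and 1.97% as higher and 3.8% as lower in Ifnar1-SA.

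Gbp3, a further member of the cluster, was at 3.22, 2.62 and 3.01 TPM in Ifnar1-SA and at 2.21, 3.31 and 2.15 TPM in WT. The WT 2 library stood above all Ifnar1-SA libraries and the other WT libraries below them, and the log2 difference was 0.16 (standard error 0.18), with 0.08 without WT 3 and 0.31 without WT 2.

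Gbp5, a lipid-anchored member that promotes NLRP3 inflammasome assembly in mouse macrophages, had the lowest difference of the family. It was at 2.16, 1.11 and 1.48 TPM in Ifnar1-SA and at 1.56, 3.57 and 2.15 TPM in WT. The genotypes overlapped, and the log2 difference was -0.39 with a 95% interval of -1.02 to 0.25. Without WT 2, its highest library, the difference was -0.16.

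Gbp2b, formerly called Gbp1 and also lipid-anchored, was too low to enter the test. It was at 0.219, 0.212 and 0.171 TPM in Ifnar1-SA and at 0.158, 0.368 and 0.270 TPM in WT (exact two-sided permutation p = 0.5, where 3 against 3 libraries cannot go below 0.1). The 5 members on chromosome 3 summed to 42.5, 26.5 and 34.03 TPM in Ifnar1-SA and to 27.5, 40.6 and 30.8 TPM in WT, most of it Gbp2.

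Among the members on chromosome 5 no gene passed the test either, and 4 of the 5 had a higher mean log2 value in Ifnar1-SA. Gbp6, one of the members that protect mouse macrophages from Listeria and mycobacteria, was at 21.4, 12.3 and 21.6 TPM in Ifnar1-SA and at 8.13, 12.9 and 11.7 TPM in WT. Ifnar1-SA 1 and 3 stood above every WT library, while Ifnar1-SA 2 lay between WT 3 and WT 2. The log2 difference was 0.69 (standard error 0.27), with a 95% interval of 0.05 to 1.32 (limma, unadjusted p = 0.0373, adjusted p = 0.9997). After median-of-ratios scaling the Gbp6 libraries no longer overlapped, with 13.4 scaled TPM in Ifnar1-SA 2 and 12.4 in WT 3, which made Gbp6 and Gbp7 the 2 members without overlap, against 8.95% of all genes in that scaling and 4.38% as higher.

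Gbp10, another antibacterial member, was at 6.70, 2.63 and 6.58 TPM in Ifnar1-SA and at 2.10, 3.82 and 3.31 TPM in WT, the same order of libraries within Ifnar1-SA as Gbp9. Its log2 difference was 0.57 (standard error 0.33), and 0.39 without WT 1 and 0.93 without Ifnar1-SA 2. Gbp9, which is recruited to Toxoplasma vacuoles in mouse cells, was at 8.80, 4.47 and 8.08 TPM in Ifnar1-SA and at 2.70, 5.67 and 5.88 TPM in WT, with a log2 difference of 0.51 and a standard error of 0.32. That difference was 0.22 without WT 1 and 0.77 without Ifnar1-SA 2. In both genes Ifnar1-SA 1 and 3 were the highest libraries and Ifnar1-SA 2 lay within the WT range.

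Gbp4, reported in mouse to restrain IRF7, was at 21.9, 12.8 and 17.7 TPM in Ifnar1-SA and at 13.2, 15.9 and 15.8 TPM in WT. Its log2 difference of 0.18 had a standard error of 0.21. Leaving out Ifnar1-SA 1 gave 0.012, and leaving out Ifnar1-SA 2 gave 0.38. Gbp8 was at 17.96, 11.5 and 13.3 TPM in Ifnar1-SA and at 11.7, 20.5 and 20.7 TPM in WT, and its log2 difference was -0.27 (standard error 0.27), with -0.52 without WT 1 and -0.14 without Ifnar1-SA 2. WT 2 and WT 3 were the highest Gbp8 libraries, while WT 1 was close to Ifnar1-SA 2. The 5 members on chromosome 5 summed to 76.7, 43.6 and 67.3 TPM in Ifnar1-SA and to 37.8, 58.8 and 57.4 TPM in WT.

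**Figure D2:**
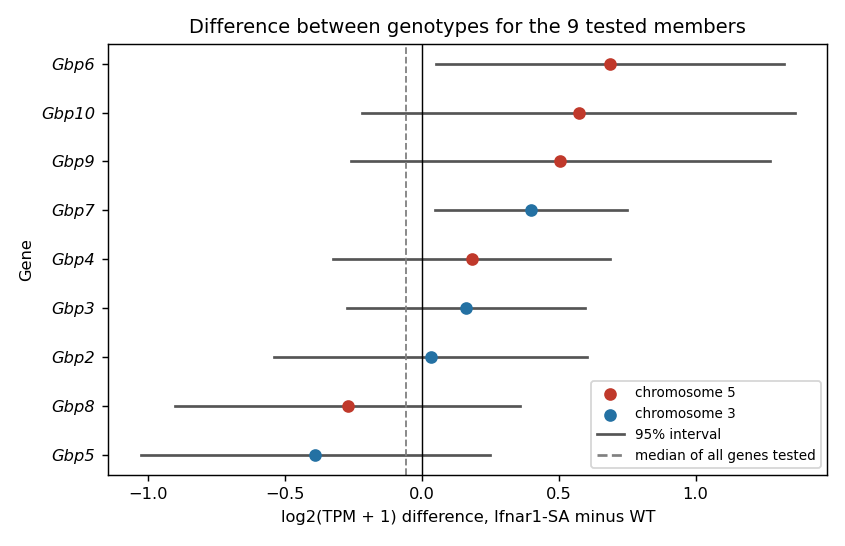
Difference in log2(TPM + 1) between Ifnar1-SA and WT for the 9 tested members, with 95% intervals from limma. The intervals of Gbp6 and Gbp7 exclude 0 before adjustment, Gbp5 and Gbp8 lie below 0, and the dashed line marks the median of all genes tested at -0.06.

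Over the family, 0 of 9 tested members passed over all genes in limma and 2 of 9 had an unadjusted p under 0.05, against 3.12% of all genes tested. The mean log2 value was higher in Ifnar1-SA for 7 and lower for 2, against 37.1% higher among all genes in unscaled TPM. Under median-of-ratios scaling the members stayed at 7 and 2, while the median of all genes moved to -0.0027. The share of all genes that were higher was not counted in that scaling. The 10 genes were chosen with earlier results of these data known, so these counts are not a test of the family. The median log2 difference of the members was 0.18, beside -0.06 for all genes tested. That median was 0.38 without Ifnar1-SA 2, 0.31 without WT 2, 0.11 without Ifnar1-SA 1 and 0.10 without WT 1. Members of the family often had the same lowest library within a genotype. Ifnar1-SA 2 was the lowest Ifnar1-SA library for 9 of 10 members and WT 1 the lowest WT library for 8 of 10. After median-of-ratios scaling this held for 7 and 9 members. How often these libraries were lowest over all genes was not counted, so the pattern is not shown to be particular to GBPs. The labels describe no difference between the libraries of a genotype beyond a number.

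**Figure D3:**
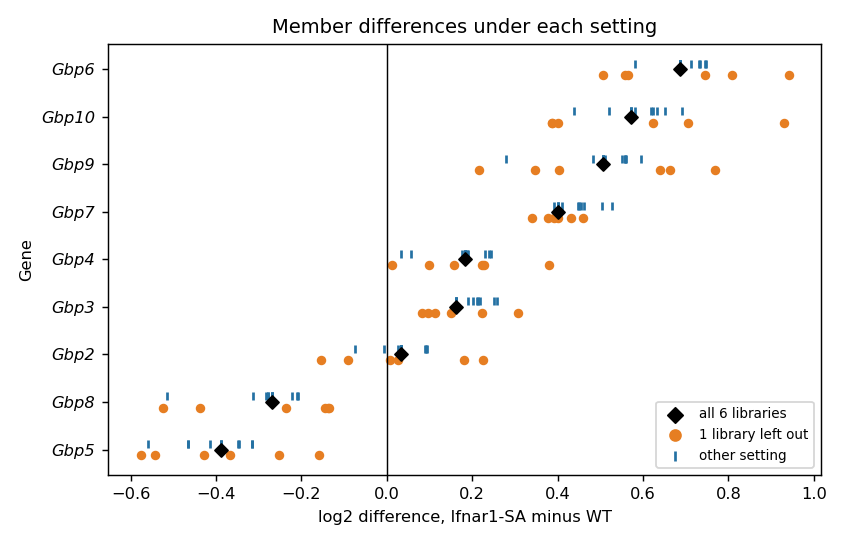
Log2 difference of each tested member with all 6 libraries (diamonds), with 1 library left out (orange points) and under other settings (blue ticks). Gbp6, Gbp7, Gbp9 and Gbp10 stay above 0 and Gbp5 and Gbp8 below 0 in every setting plotted, while Gbp2 falls on both sides.

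The share of a member in the summed GBP TPM of its library does not depend on how libraries are scaled. For 3 of 10 members, Gbp5, Gbp6 and Gbp8, these shares did not overlap between the genotypes, and for the other 7 they did. No matching figure was computed over all genes. Shares of 1 total are tied, as a larger one leaves less for the rest, so the 3 are not separate results. Gbp6 made up 17.9%, 17.5% and 21.3% of the summed GBP TPM in Ifnar1-SA and 12.4%, 13.0% and 13.3% in WT. Gbp8 made up 15.1%, 16.4% and 13.2% in Ifnar1-SA and 17.95%, 20.6% and 23.5% in WT. Every Ifnar1-SA library had the larger Gbp6 share and the smaller Gbp8 share. Gbp5 made up 1.81%, 1.58% and 1.46% in Ifnar1-SA and 2.39%, 3.59% and 2.44% in WT, also without overlap. The share of Gbp7, the member separated in TPM, was among the 7 that overlapped.

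The ratio of Gbp6 to Gbp8 was 1.19, 1.07 and 1.62 in Ifnar1-SA and 0.693, 0.629 and 0.565 in WT. Gbp6 was thus the more abundant of the pair in each Ifnar1-SA library and Gbp8 in each WT library, also in Ifnar1-SA 2, where both genes were low. The ratio averaged 1.29 ± 0.290 in Ifnar1-SA and 0.629 ± 0.0640 in WT (SD, n = 3 each). It was picked after the values were seen and was therefore not tested.

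Of the 8 ratios between Gbp6 and another tested member, 4 did not overlap between the genotypes, those with Gbp2, Gbp4, Gbp5 and Gbp8. The 4 with Gbp3, Gbp7, Gbp9 and Gbp10 overlapped. The ratio of Gbp2 to Gbp6 was 1.57, 1.58 and 1.20 in Ifnar1-SA and 2.58, 2.41 and 2.06 in WT, and that of Gbp4 to Gbp6 was 1.02, 1.04 and 0.819 in Ifnar1-SA and 1.62, 1.24 and 1.35 in WT. The ratio of Gbp6 to Gbp7 was 6.28, 3.89 and 6.19 in Ifnar1-SA and 3.15, 5.60 and 5.76 in WT. The ratio of Gbp2 to Gbp4 overlapped as well. Over the 36 pairs of tested members, the difference in log2(TPM + 1) between the genes of a pair did not overlap between the genotypes in 12 pairs (33.3%), against 9.5% of all pairs of tested genes. The 12 pairs share genes and are not independent, and 9 of them include Gbp5 or Gbp8. Gbp5 was in 6, Gbp6 in 4 and Gbp8 in 3 of them. The pair of Gbp2 and Gbp10, among the 12, overlapped as a plain ratio of TPM, at 7.38 in Ifnar1-SA 2 and 7.31 in WT 3.

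**Figure D4:**
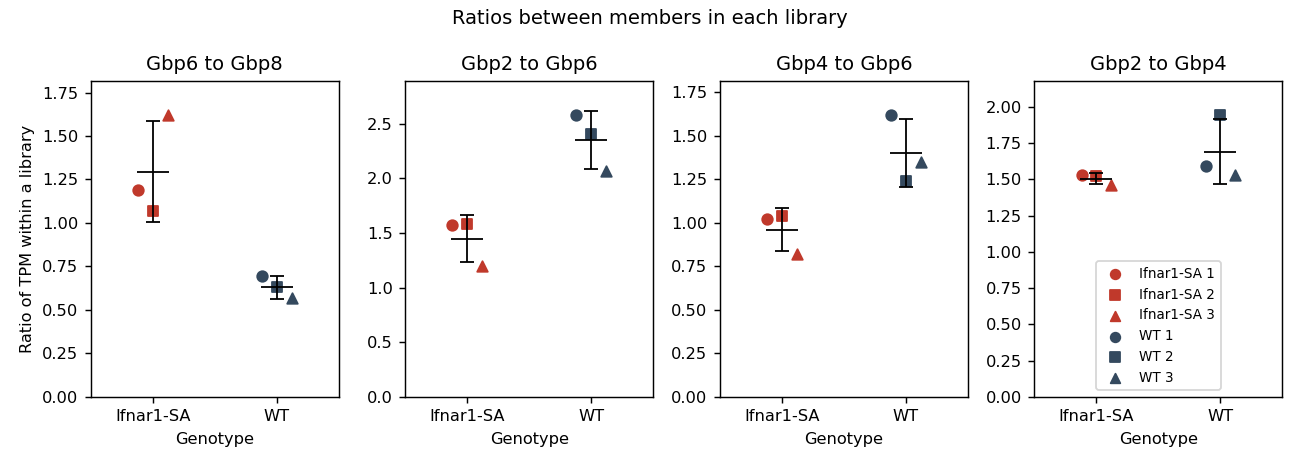
Ratio of TPM between 2 members within each library, with the genotype mean and SD in black. The ratio of Gbp6 to Gbp8 lies between 1.07 and 1.62 in Ifnar1-SA and between 0.565 and 0.693 in WT, while the ratio of Gbp2 to Gbp4 overlaps.

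Gbp6 and Gbp10 share much of their sequence, so the way reads were split between them bears on their values. In GENCODE M21 transcripts, 89.8% of the 31-base words of Gbp10 and 73.9% of those of Gbp6 also occur in another gene. Of the words of Gbp10, 80.8% occur in Gbp6, and of the words of Gbp6, 51.4% occur in Gbp10. The gene model Gm43302, which was not analysed here, holds 67.8% of the words of Gbp6 and 76.7% of those of Gbp10. Single values of Gbp6 and Gbp10 are therefore uncertain. The sum of Gbp6 and Gbp10 was 28.1, 14.9 and 28.2 TPM in Ifnar1-SA and 10.2, 16.7 and 15.0 TPM in WT. Gm43302 is not in this sum, so splitting of reads with it can still bear on the summed values. Fitted as 1 gene, the sum had a log2 difference of 0.70 (standard error 0.29) (limma, unadjusted p = 0.0508, adjusted p = 0.9997).

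The uncertainty of the Gbp6 value holds for its ratios too, and the part of read splitting in them was not tested. Of the 31-base words of Gbp8, 31.1% occur in some other gene and 13.2% in Gbp6, while 7.48% of the words of Gbp6 occur in Gbp8. Gbp8 shares most with Gbp11 (15.5%), which GENCODE M21 lists as a polymorphic pseudogene of the same cluster and which is not one of the 10 genes. Gbp11 was at 2.76, 1.39 and 1.64 TPM in Ifnar1-SA and at 1.82, 3.31 and 2.33 TPM in WT. The members on chromosome 3 had 2.90% (Gbp5) to 14.5% (Gbp7) of their words in other genes, and Gbp4 and Gbp9 13.5% and 18.3%. The share for Gbp7 was mostly with the gene model Gm43802, at 10.8%.

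**Figure D5:**
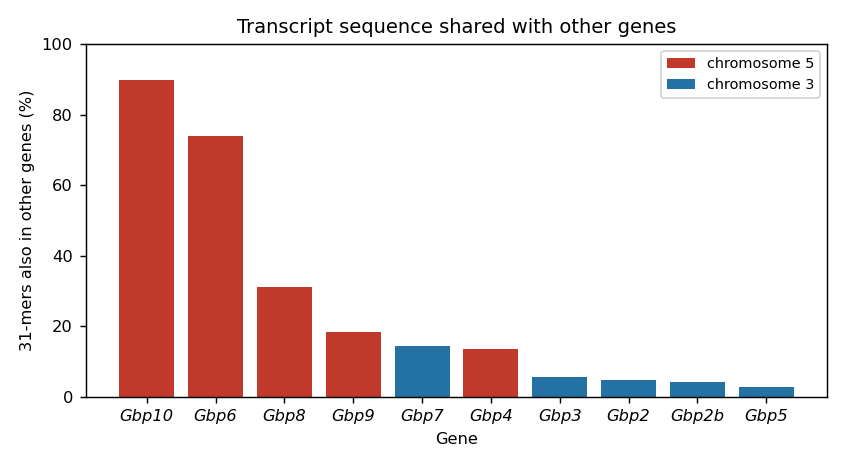
Percentage of the distinct 31-base words of each member's GENCODE M21 transcripts that also occur in transcripts of any other gene. Gbp10 and Gbp6 stand at 89.8% and 73.9%, and the other members at or below 31.1%.

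Genes of the pathways that induce GBPs were then read as lists. For the type II interferon pathway 9 of 10 genes were tested and 0 passed in either direction, with a median log2 difference of -0.03. Ifng, the inducing cytokine, was at 8.54, 22.95 and 28.6 TPM in Ifnar1-SA and at 28.7, 6.80 and 7.54 TPM in WT. The receptor chains Ifngr1 and Ifngr2 were at 29.1 ± 5.47 and 20.5 ± 2.99 TPM in Ifnar1-SA and at 25.4 ± 4.39 and 26.1 ± 4.18 TPM in WT.

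Irf1, the factor that interferon-gamma uses to induce GBPs, was at 110, 59.1 and 76.0 TPM in Ifnar1-SA and at 72.6, 88.3 and 82.3 TPM in WT. Irf8, a relative expressed in immune cells, was at 59.1, 48.8 and 37.0 TPM in Ifnar1-SA and at 74.7, 79.8 and 60.8 TPM in WT (limma, unadjusted p = 0.0305, adjusted p = 0.9997).

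For the type I pathway 10 of 10 genes were tested and 0 passed, with a median of 0.05. Ifnar1 was at 25.1 ± 3.09 TPM in Ifnar1-SA and at 31.1 ± 9.51 TPM in WT, and Ifnar2 at 64.0 ± 11.3 and 79.3 ± 20.6 TPM. Gene totals cannot show a replaced amino acid, and the genotype labels are thus unchecked by them. Stat2 was at 21.7 ± 6.33 TPM in Ifnar1-SA and at 13.9 ± 3.87 TPM in WT, and Usp18, a brake on receptor signalling, at 68.2 ± 34.7 and 26.7 ± 17.9 TPM. Of 9 IRF genes 0 passed, with a median of -0.03. Irf7, which amplifies interferon production, had the smallest p, at 28.1, 11.5 and 42.2 TPM in Ifnar1-SA and at 2.01, 3.44 and 2.95 TPM in WT (limma, adjusted p = 0.244, and 0.0231 without Ifnar1-SA 2). Leaving out any other single library did not bring Irf7 past the threshold. Irf9 was at 35.4 ± 7.78 TPM in Ifnar1-SA and at 24.9 ± 6.82 TPM in WT.

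The immunity-related and other interferon-inducible GTPases act with GBPs on vacuoles. Of the 12 found, 10 were tested, 0 passed and all 10 had a higher mean log2 value in Ifnar1-SA, with a median of 0.43. Irgm1, a regulator of the group, was at 120, 72.4 and 107 TPM in Ifnar1-SA and at 63.6, 62.0 and 56.5 TPM in WT. Ifi47 was at 67.8, 47.2 and 54.9 TPM in Ifnar1-SA and at 42.9, 39.0 and 38.1 TPM in WT, and Tgtp1 at 28.7, 17.6 and 36.8 against 20.1, 7.35 and 10.7 TPM. Irgm1 and Ifi47 were among the 3 of 10 tested genes without overlap between the genotypes, against 5.77% of all genes tested. The list of type I interferon-stimulated genes had 23 of 30 tested, 0 past the threshold and a median of 0.93. All 23 had a higher mean log2 value in Ifnar1-SA, 17 an unadjusted limma p under 0.05 and 16 no overlap. Among all genes tested, in unscaled TPM, these shares were 37.1%, 3.12% and 5.77%. All lists were chosen with earlier results of these data known, so these counts are not a test of the list. Small RNA and predicted genes, and with them the gene Lars2, were also removed, a setting chosen after seeing the data. In that setting 5 of the list passed in limma, Ifi27l2a, Irf7, Isg15, Trim30a and Xaf1. With all genes kept, Ifi27l2a was at 992 ± 425 TPM in Ifnar1-SA and at 267 ± 44.6 TPM in WT, and Trim30a at 30.99 ± 9.12 and 10.9 ± 1.54 TPM. Beside these medians that of the GBPs was 0.18, and the differences between lists were not tested.

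No gene of the lists that act with GBP proteins passed the test. Of 6 prenylation and CaaX processing enzymes, which attach or trim the lipid anchor of Gbp2, Gbp2b and Gbp5, 0 passed and the median was -0.09. Pggt1b was at 3.19 ± 0.197 TPM in Ifnar1-SA and at 3.50 ± 0.259 TPM in WT, Fntb at 4.73 ± 0.701 and 5.19 ± 0.639 TPM, and Zmpste24 at 10.6 ± 1.08 and 11.3 ± 1.002 TPM. Of 10 autophagy conjugation genes, which guide GBPs to vacuoles, 0 passed and the median was -0.08. Gabarapl1 was at 35.9 ± 0.938 TPM in Ifnar1-SA and at 43.5 ± 3.20 TPM in WT. Map1lc3a was at 26.2 ± 4.81 and 32.9 ± 2.10 TPM, and Atg12 at 9.92 ± 1.32 and 12.4 ± 2.74 TPM. Gabarapl1 and Map1lc3a, both lower in Ifnar1-SA, were the 2 of 10 without overlap, against 5.77% of all genes tested.

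Of the inflammasome and pyroptosis genes, which act downstream of GBPs, 7 of the 9 found were tested and 0 passed, with a median of 0.29. Pycard, the inflammasome adaptor, was at 54.4, 51.1 and 51.0 TPM in Ifnar1-SA and at 41.0, 32.8 and 35.5 TPM in WT (limma, unadjusted p = 0.0104, adjusted p = 0.9997). Il18, a cytokine that inflammasomes mature, was at 3.93, 2.39 and 6.13 TPM in Ifnar1-SA and at 1.54, 1.79 and 1.62 TPM in WT. Aim2, a DNA sensor, was at 8.64, 9.26 and 8.97 TPM in Ifnar1-SA and at 10.7, 12.0 and 9.80 TPM in WT. These 3 genes had the smallest p of the list. They were the 3 of 7 tested without overlap between the genotypes, against 5.77% of all genes tested. Pycard and Il18 were higher and Aim2 lower in Ifnar1-SA. Of 6 regulators linked to GBPs 0 passed, with a median of -0.01. Ubd, a ubiquitin-like modifier, was at 0.422, 0.342 and 0.176 TPM in Ifnar1-SA and at 1.48, 2.09 and 4.14 TPM in WT (limma, adjusted p = 0.689). Ubd passed only without small RNA and predicted genes, a setting chosen after seeing the data (limma, adjusted p = 0.0443). Nlrc5, the activator of MHC class I genes, was at 5.57 ± 1.48 TPM in Ifnar1-SA and at 4.003 ± 0.541 TPM in WT. Trim21 was at 4.53 ± 0.653 and 3.48 ± 0.498 TPM. Ubd, lower in Ifnar1-SA, and Nlrc5, higher, were the 2 of 6 regulators without overlap, against 5.77% of all genes tested.

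The genes whose centred log2 profiles over the 6 libraries lay closest to Gbp2 were Hvcn1, Pank2, Otud5, Snap47 and Pkp3, out of 7584 genes averaging 5 TPM or more. Their root-mean-square distances were 0.039 to 0.063 on the log2 scale, beside a spread of 0.27 for Gbp2 itself. All 5 were highest in Ifnar1-SA 1 and WT 2, the pair with the largest scaling factors. Closest to Gbp4, whose mean over the 6 libraries was highest on chromosome 5 though not beyond the spread of Gbp8 and Gbp6, were Grn, Trex1, Dennd3, Sp110 and Adipor2, at distances of 0.061 to 0.077 beside a spread of 0.25 for Gbp4. Trex1 was at 204, 127 and 191 TPM in Ifnar1-SA and at 138, 169 and 153 TPM in WT.

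Bulk libraries cannot tell apart fewer cells of a type and less RNA per cell, and other cell types can also transcribe GBPs. Of 10 macrophage and monocyte markers, 1 had a mean of at least 1 TPM, and they summed to 10.5 to 13.0 TPM in Ifnar1-SA and 8.88 to 15.9 TPM in WT. Most of that sum was Cd68, at 9.66, 9.62 and 8.32 TPM in Ifnar1-SA and 7.14, 11.5 and 12.3 TPM in WT. Csf1r, the defining receptor of these cells, was at or below 0.148 TPM throughout. B cell markers, with 4 of 7 at that level, summed to 10.3 to 14.0 TPM in Ifnar1-SA and 9.13 to 20.4 TPM in WT. Dendritic cell markers, 5 of 9, summed to 648 to 901 TPM in Ifnar1-SA and 855 to 1318 TPM in WT, most of it H2-Ab1.

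CD8 T and NK cell markers, 4 of 11, summed to 1684 to 2506 TPM in Ifnar1-SA and 920 to 2693 TPM in WT, nearly all from Nkg7. Neutrophil and mast cell markers, 2 of 10, summed to 18.6 to 23.3 TPM in Ifnar1-SA and 8.38 to 13.2 TPM in WT without overlap. Most of that sum was Ly6g. S100a8, a defining neutrophil gene, was listed at 0 in all 3 Ifnar1-SA libraries and in WT 1. Its highest value was 0.504 TPM, in WT 2. S100a9, of the same list, was above 0 in all 6 libraries and overlapped between the genotypes. It was at 2.11, 1.73 and 0.891 TPM in Ifnar1-SA and at 0.615, 2.74 and 2.87 TPM in WT. Erythroid and platelet markers, 0 of 6, summed to at most 1.77 TPM, and Hbb-bs was listed at 0 throughout. T cell markers, 7 of 7, summed to 2070 to 2320 TPM in Ifnar1-SA and 1940 to 2071 TPM in WT. Treg markers, 7 of 8, summed to 3593 to 4438 TPM in Ifnar1-SA and 3506 to 4181 TPM in WT. Most of the Treg sum was Tnfrsf18, and the Treg marker with a mean under 1 TPM was Foxp3. The part of other cell types in the GBP values was not tested.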

How the data were processed

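The deposited table by the authors holds TPM per gene in 6 columns, each matched to 1 sample by its title. The submitters' processing notes name Salmon, mm10 and GRCm38. The Salmon version, annotation and read filters are not stated in any source used here. Depth is unknown, so no counting interval is given. The 10 genes and all lists were chosen with earlier results of these data known.

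Values were tested as log2(TPM + 1), for genes averaging 1 TPM or more, by limma 3.58.1 with an intensity trend (R 4.3.3), two-sided, adjusted over 12141 genes at 0.05, without a replicate block. The fit was tested on simulated data. All 10 genes were named, the receptor chains, Ifng and Irf1 always, up to 3 genes of smallest p per list, and the 5 genes closest in profile to Gbp2 and to Gbp4. A gene that this rule also names is not reported here. The ratios, Gbp11, Foxp3 and the other single markers were picked with their values in view. Positions are from GENCODE M21. Shared sequence was counted as 31-base words over all GENCODE M21 transcripts on the transcribed strand. Sequences are from RefSeq. Tables and figures were made with matplotlib 3.10.9, scipy 1.17.1, numpy 2.4.6 and pandas 2.3.3 in Python 3.11.15.

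Alternatives were other pseudocounts (0.1, 0.5), other filters (none, or an average of 5 TPM), median-of-ratios, TMM (an unweighted trimmed mean of log ratios) and quantile scaling, no trend, array weights, a replicate block and leaving out libraries. Removing small RNA and predicted genes, and summing near copies, were chosen after seeing the data.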

Additional observations from a re-analysis of the deposited data

How the results depend on the processing

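No GBP passed over all genes under any of the 18 alternatives, where the lowest adjusted p was 0.331, for Gbp7 with array weights. The sign of the log2 difference held in 154 of 158 combinations of member and alternative, and for 8 of 9 members in all of theirs. The exception was Gbp2, at -0.074 with array weights, -0.0061 without WT 2 and Ifnar1-SA 1, and -0.15 to 0.23 with 1 library left out. The other filters, the fit without a trend and the replicate block leave each log2 difference as it was. In those alternatives the sign could not change. The median of the members ranged from 0.10 to 0.38 with 1 library left out. The 7 calls over all genes became 15 and 14 with pseudocounts of 0.1 and 0.5, 1 with a mean of at least 5 TPM, 12 with array weights, 15 to 28 with 1 library left out, 0 without WT 2 and Ifnar1-SA 1 (366 at an unadjusted p under 0.05), and 19 without small RNA and predicted genes. Genes of the pathway lists past the threshold numbered 0 with all 6 libraries, 0 to 1 with 1 left out (Irf7, without Ifnar1-SA 2) and 6 without small RNA and predicted genes (Ubd and 5 interferon-stimulated genes). The cause was not tested.

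With a replicate block 0 genes passed in limma over all genes (399 at an unadjusted p under 0.05). In that fit 0 members had an unadjusted p under 0.05, against 2 without the block. A balanced block leaves each log2 difference as it was, so it cannot change a member's direction. The numbers are not shown to pair the samples, since deviations of same-numbered libraries correlated at -0.112, -0.106 and 0.151. Summing members by likeness of their RefSeq proteins was not run. The 3 scalings moved the median log2 difference of all genes to -0.0027, -0.0003 and 0.0015, beside -0.06 unscaled. The unknown depth limits Gbp2b and the other members near 1 TPM most.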
